A study of Homo sapiens with 4 samples.

Results

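The TRIM (tripartite motif) genes were examined on 4 arrays of the human pancreatic carcinoma cell line Panc1. Members were every gene probe whose symbol on the array is TRIM followed by digits, with or without a trailing letter. This gave 70 of 24460 gene probes, which stand for 62 of 17558 genes with a symbol. Of these, 67 probes of 60 genes were bright enough to be tested, and 64 probes exceeded the limit set by blank spots on every array. The parental line, not treated with gemcitabine, has 1 array, and 3 clones resistant to gemcitabine, GR1, GR3 and GR4, have 1 array each. Gemcitabine is a deoxycytidine analogue that blocks DNA synthesis. The resistant cells came from the parental line after 2 months in gemcitabine that rose from 2 ng/ml to 30 ng/ml, followed by cloning through limiting dilution. The clones share 1 selection, so the p-values cover only the spread between these cultures, and the treatment text of the labels numbers the clones GR1, GR2 and GR3 where the titles, followed here, give GR1, GR3 and GR4. Whether gemcitabine was in the medium at harvest is not given in the sources used here.

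TRIM proteins carry, from the amino end, a RING finger, B-box zinc fingers and a coiled coil, and most act as E3 ubiquitin ligases through the RING. A few members, among them TRIM14, TRIM29, TRIM44 and TRIM66, lack the RING, so the family's usual name of E3 ligases does not describe each of its members. The end of the chain sorts the family: most members end in a PRY-SPRY domain that binds targets, and others in NHL repeats, a PHD finger with a bromodomain, or a membrane anchor. Interferons, the cytokines released on viral infection, raise the transcripts of a subset of TRIM genes. The proteins of that subset bind viral capsids, detect antibody-coated virus in the cytosol, or place ubiquitin chains on sensors and adaptors of the interferon response.

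Signals are log2 intensities after subtraction of the blank spots and quantile normalization, with a floor of 0.61. Differences are the mean of the 3 clones minus the parental array, with the standard error (SE) of the limma fit. "Fell" and "rose" mean an adjusted p under 0.05 in that fit, Benjamini-Hochberg over all 22796 tested probes. A level of 1 probe cannot be set against the level of another. From 91.5% to 93.8% of all gene probes were above the limit on each array, and 65 to 67 of the 70 TRIM probes were. The line's epithelial identity was seen in KRT7, KRT18, KRT19 and EPCAM, which lay between log2 11.95 and 15.23 on all arrays. Of the 3 blood markers on the array, PTPRC and CD3E were above the limit on 2 arrays each and lay at 1.47 or less, and CD14 was at 6.61 in parental cells and 5.05 to 5.39 in the clones. The endothelial markers VWF and CDH5 lay between 2.68 and 3.48 and the muscle markers MYH2, DES and CKM between 1.59 and 6.55. The part of such transcripts in the results was not tested. As RNA was taken from whole cultures, fewer cells with a transcript and less of it per cell cannot be told apart.

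Of the 60 TRIM genes tested, 5 fell and 1 rose. The 5 that fell, TRIM22, TRIM21, TRIM38, TRIM14 and TRIM5, all belong to a list of 10 interferon-induced members, and the 1 that rose, TRIM47, does not. Over all 16592 genes 4.06% passed, 1.89% as lower and 2.17% as higher. By size alone, 7 TRIM genes were at least 2-fold lower than the parental array in all 3 clones, against 3.6% of all genes, and 1 was at least 2-fold higher, against 3.66%. These 7 are the 5 that fell, TRIM7 and TRIM29. At any size, 24 members were lower in all 3 clones and 16 higher, against 37.8% and 35.3% of all genes, and 20 were neither. With any 1 clone left out, or with no filter on dim probes, 0 genes of the whole array passed limma, TRIM genes included. In these 4 fits 16 to 23 TRIM genes and 21.3% to 36.6% of all genes had an unadjusted p under 0.05. There 7 to 9 TRIM genes were at least 2-fold lower and 1 at least 2-fold higher in all clones used. Of all genes, 6.86% to 10.6% were at least 2-fold apart in either direction by the same rule.

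**Figure D1:**
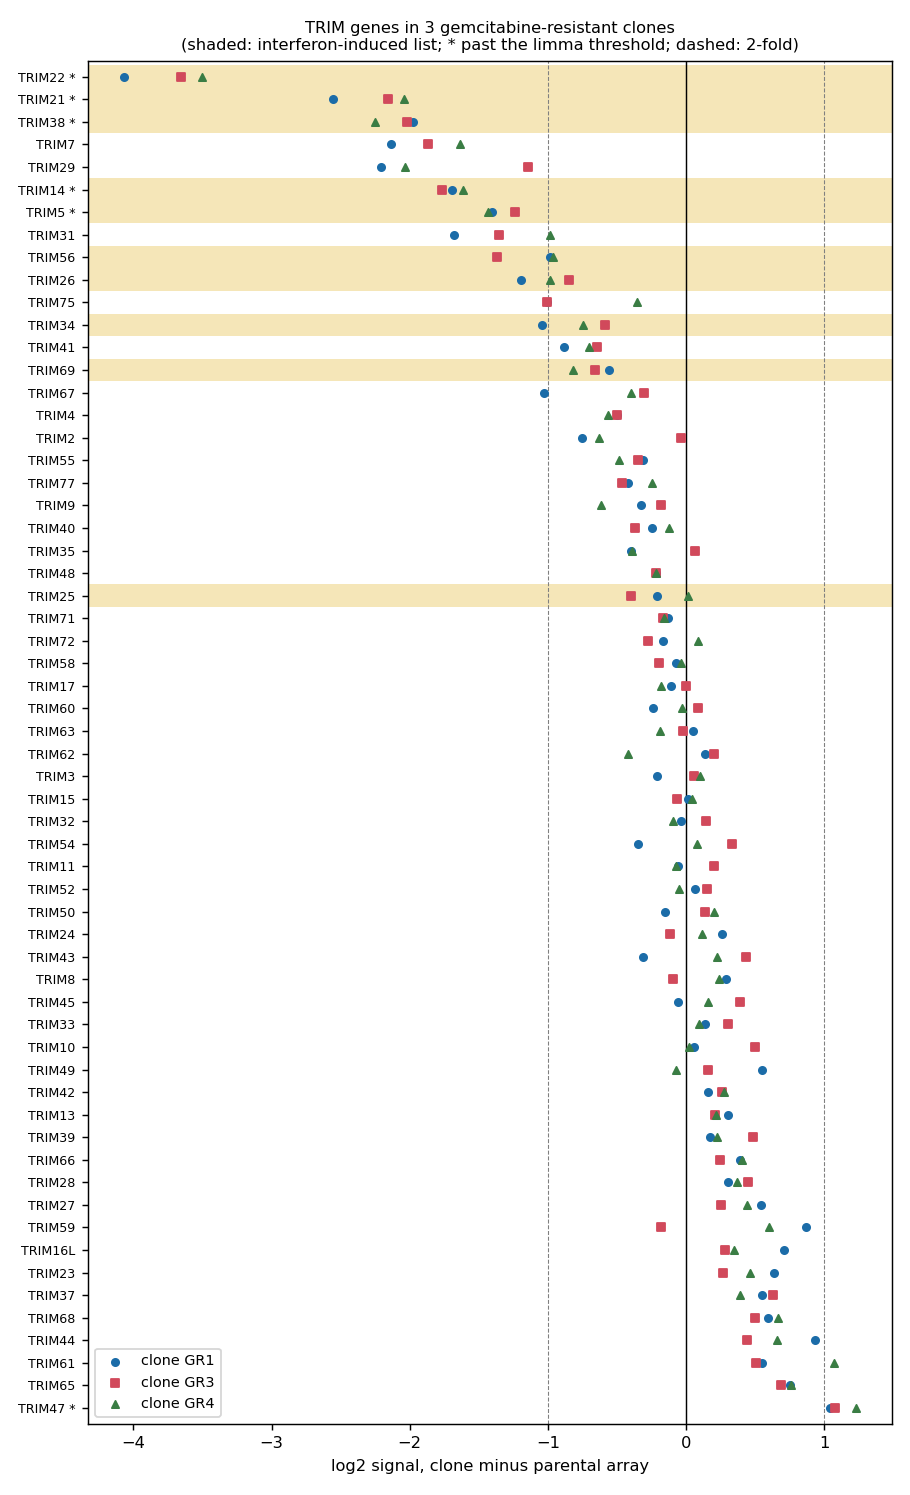
Log2 signal of each clone minus the parental array (horizontal axis) for the 60 TRIM genes tested, each by its brightest probe; shaded rows are the 10 interferon-induced members, stars mark the 6 genes past limma's threshold and dashed lines 2-fold. Of the shaded genes, 9 have all 3 clones left of 0, and TRIM25 has GR4 at 0.01.

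The antiviral factors encoded next to each other on chromosome 11 come first. TRIM22, which restricts several viruses, had a log2 signal of 8.97 in parental cells, 4.90 in GR1, 5.31 in GR3 and 5.46 in GR4. All 3 clones lay far below the parental value and within 0.56 of each other. TRIM22 fell 13.4-fold (log2 difference −3.74 ± 0.27 (SE, 3 clones against 1 array), adjusted p = 0.0442), the widest difference in the family.

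TRIM5, whose product binds the capsids of incoming retroviruses, was at 7.71 in parental cells, 6.31 in GR1, 6.47 in GR3 and 6.28 in GR4. The clones did not overlap the parental value and stood close together. TRIM5 fell 2.56-fold (−1.36 ± 0.14, adjusted p = 0.0444).

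TRIM34, a close relative of TRIM5, has 2 probes. The brighter one was at 6.83 in parental cells, 5.79 in GR1, 6.24 in GR3 and 6.08 in GR4, a difference of −0.79 ± 0.22 (adjusted p = 0.123). The dimmer one was at 5.03, 3.91, 4.13 and 3.90 on the same arrays, a difference of −1.05 ± 0.15 (adjusted p = 0.0543). Both probes were lower in all 3 clones, and neither passed. A read-through transcript joins TRIM6 and TRIM34 in the annotation, and which of the transcripts each probe binds was not tested; TRIM6 was not analysed here.

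TRIM21, a cytosolic receptor for the constant part of antibodies that sends antibody-coated virus to the proteasome, was at 8.30 in parental cells, 5.75 in GR1, 6.14 in GR3 and 6.26 in GR4. It fell 4.77-fold (−2.25 ± 0.25, adjusted p = 0.0479). As for TRIM22, GR1 was the lowest clone and stood somewhat apart from GR3 and GR4.

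The interferon-induced members that act on signalling differed among themselves. TRIM38, which degrades components of the Toll-like receptor and NF-kappaB pathways, was at 8.67 in parental cells and at 6.70, 6.66 and 6.43 in GR1, GR3 and GR4. TRIM38 fell 4.23-fold (−2.08 ± 0.16, adjusted p = 0.0442), and here GR4, not GR1, was the lowest clone. TRIM14, a RING-less adaptor on mitochondria in the pathway from viral RNA to interferon, was at 8.56 in parental cells and at 6.87, 6.79 and 6.95 in the clones. TRIM14 fell 3.23-fold (−1.69 ± 0.12, adjusted p = 0.0442), with the 3 clones within 0.16 of each other.

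TRIM56, which promotes signalling from cytosolic DNA and double-stranded RNA, was at 6.41 in parental cells and 5.42, 5.03 and 5.45 in the clones (−1.10 ± 0.22, adjusted p = 0.0791). TRIM26, which targets IRF3, was at 8.05 and at 6.86, 7.20 and 7.07 (−1.01 ± 0.18, adjusted p = 0.0678). Both were lower in all 3 clones by about the same amount and did not pass, except that both passed when only probes above the limit on all 4 arrays were tested (adjusted p = 0.0371 and 0.0336 by limma), a setting in which 13.4% of all genes passed.

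TRIM69, a restriction factor for some RNA viruses, had dim signals of 2.89 in parental cells and 2.34, 2.23 and 2.07 in the clones (−0.68 ± 0.15, adjusted p = 0.0921). TRIM25, the ligase that ubiquitinates the RNA sensor RIG-I, was at 6.42 in parental cells, 6.21 in GR1, 6.02 in GR3 and 6.44 in GR4. TRIM25 was the 1 member of the list whose clones overlapped the parental value, with a difference of −0.20 ± 0.20 (adjusted p = 0.569).

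**Figure D2:**
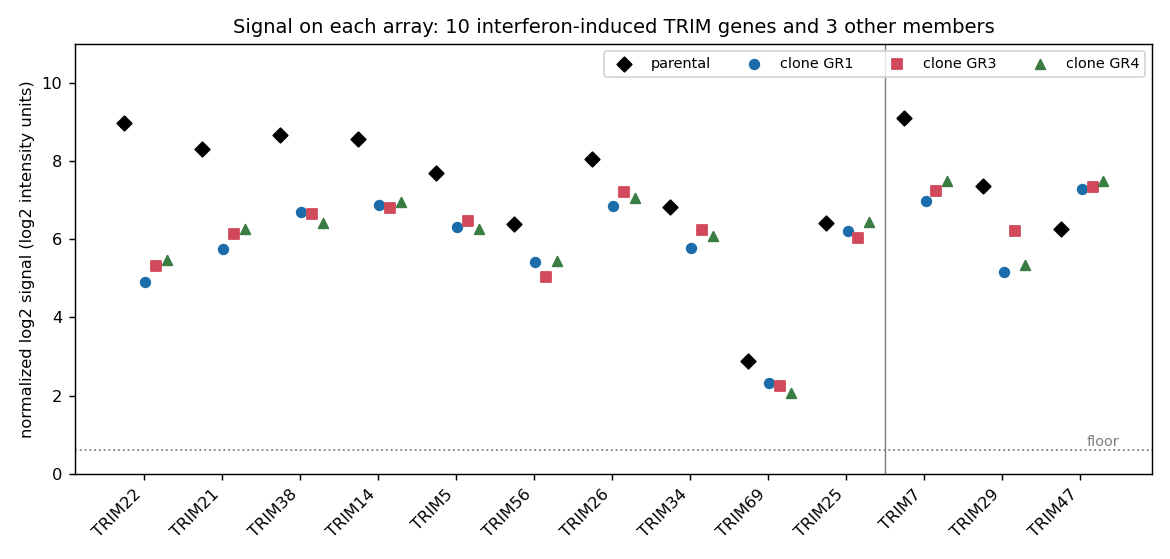
Normalized log2 signal (vertical axis) on the parental array and the 3 clones for the 10 interferon-induced TRIM genes and, right of the line, TRIM7, TRIM29 and TRIM47; the dotted line is the floor of 0.61. For each gene but TRIM25 the parental array lies outside the range of the clones, and heights of different genes cannot be compared, since each has its own probe.

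The size of these differences depended on the processing. The normexp alternative used the spot and background columns of the scanner files and also added an offset of 50 units to each signal. The main processing added none, and the share of the offset in the change was not tested. With normexp, TRIM22 was at −2.29, TRIM38 at −1.69, TRIM21 at −1.55 and TRIM14 at −1.14. TRIM5 was at −0.11 (adjusted p = 0.627), and TRIM69, which had been lower, was at 0.0074 (adjusted p = 0.977). Other members were also nearer to 0 there, for example TRIM56 to −0.44, TRIM65 to 0.24 and TRIM41 to −0.10. TRIM22 and TRIM14 passed the test there, and TRIM38 (adjusted p = 0.0697), TRIM21 (0.0577) and TRIM5 did not.

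**Figure D3:**
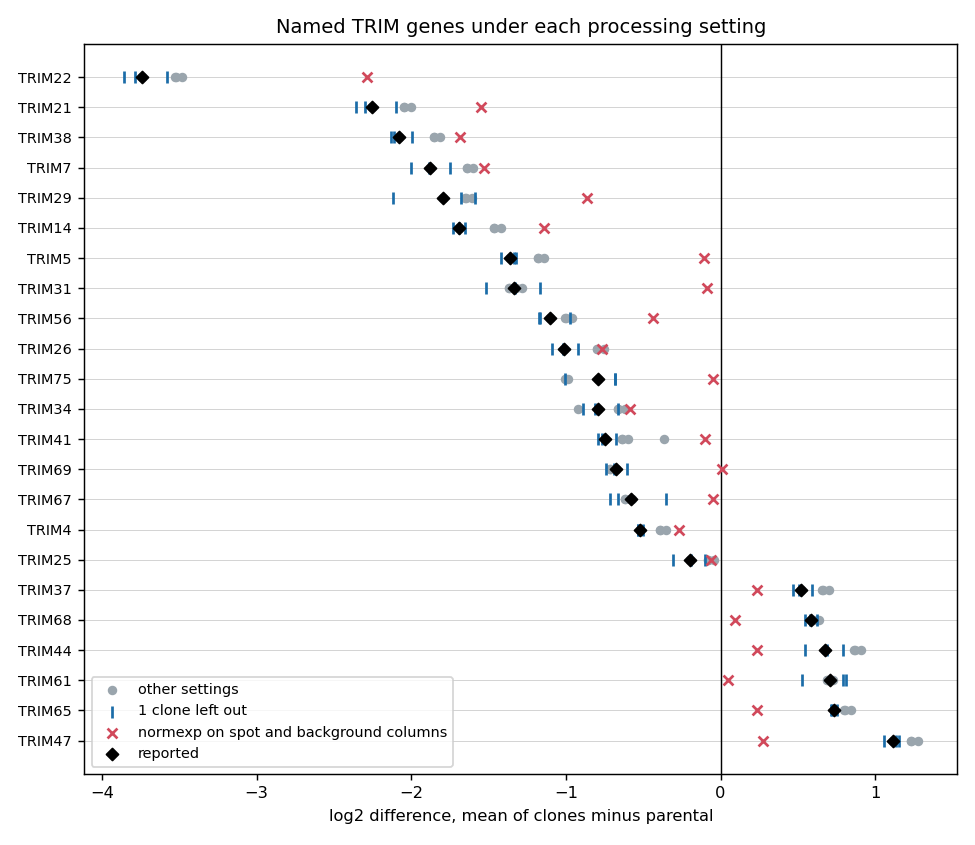
Log2 difference between the clones and the parental array (horizontal axis) for the 23 members named by rule, as reported (diamonds), with 1 clone left out (bars), with normexp on both scanner columns (crosses) and under the other alternatives (grey). TRIM22 stays leftmost in each case, and the crosses of TRIM5 (−0.11) and TRIM31 (−0.085) lie close to 0.

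Set against the rest of the family, the 10 interferon-induced members had a median log2 difference of −1.23, and the other 50 tested members one of 0.02. The median over all genes tested was −0.02. By clone, the interferon-induced median was −1.30 in GR1, −1.31 in GR3 and −1.21 in GR4, and that of the rest was −0.047, 0.11 and 0.030. Of the 10, 5 fell, and 9 had an unadjusted p under 0.05, while of the 50, 0 fell and 1 rose by limma, with 6 lower and 5 higher at an unadjusted p under 0.05. Over all genes 31.9% had such a p, and 1.89% fell and 2.17% rose by limma. The 0 and 1 among the 50 are near that background. All 10 had a log2 difference of −0.20 or less, and the other 50 ranged from −1.88 to 1.12. No test of this contrast between lists was made, because the list was drawn up with the fall of interferon-stimulated genes in these clones known.

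**Figure D4:**
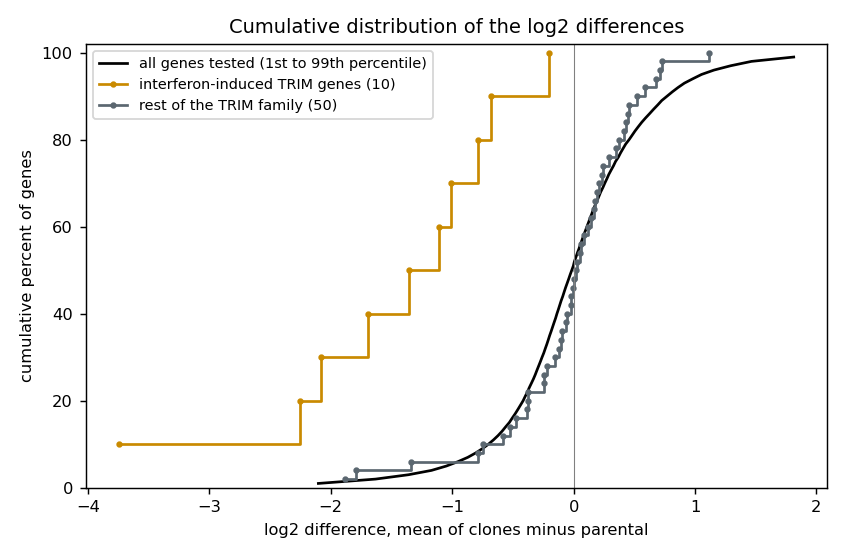
Cumulative percent of genes (vertical axis) against the log2 difference between the clones and the parental array for all genes tested, the 10 interferon-induced TRIM genes and the other 50. The curve of the other members runs close to that of all genes around a median of 0.02, and that of the interferon-induced members lies to the left with a median of −1.23.

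A further 17 members tested are known to act in interferon or innate signalling without standing on the induced list. Of these, 0 passed limma, against 4.06% of all genes. At an unadjusted p under 0.05, 3 were lower and 3 higher, against 31.9% of all genes in either direction. These counts are near the background, and the median of the 17 was 0.03. TRIM31, which drives the adaptor MAVS into aggregates, had 2 dim probes, both lower in all clones. Its brighter probe was at 3.32 in parental cells and 1.64, 1.97 and 2.34 in the clones (−1.34 ± 0.32, adjusted p = 0.0967). Its dimmer probe was at 1.99 and at 0.81, 0.61 and 0.88 (−1.22 ± 0.16, adjusted p = 0.0517), and on GR3 it was not above the limit. The dimmer probe thus passed the filter through the parental array alone, which favours lower values in the clones. With normexp on the 2 columns the brighter probe was at −0.085.

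TRIM29, a RING-less member known as a negative regulator of innate signalling and for its high level in many carcinomas, was at 7.37 in parental cells, 5.16 in GR1, 6.23 in GR3 and 5.34 in GR4. Each clone was at least 2-fold lower, but the clones were far apart, and the difference of −1.80 ± 0.50 did not pass (adjusted p = 0.121). Without GR3 it was −2.12, and with normexp on the 2 columns −0.87.

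Members of the same group stood on the other side of 0. TRIM65, which ubiquitinates the RNA sensor MDA5, was at 5.75 in parental cells and at 6.497, 6.43 and 6.505 in the clones (0.73 ± 0.11, adjusted p = 0.0561). TRIM44, a RING-less protein that stabilizes other proteins, was at 7.39 and at 8.32, 7.83 and 8.05 (0.68 ± 0.23, adjusted p = 0.167). TRIM68, a ligase that binds the androgen receptor, was at 4.90 and at 5.49, 5.40 and 5.56 (0.58 ± 0.13, adjusted p = 0.0854). All 3 were higher in every clone without passing. With only probes above the limit on all 4 arrays tested, where 13.4% of all genes passed, TRIM65 passed (adjusted p = 0.0449 by limma), as did TRIM31 (adjusted p = 0.0430). TRIM4, of the same group, was at 6.70 in parental cells and at 6.20, 6.20 and 6.13 in the clones (−0.52 ± 0.11, adjusted p = 0.0819).

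TRIM27 has 2 probes, both higher in all clones, with differences of 0.41 ± 0.16 and 0.64 ± 0.13. TRIM8, a regulator of cytokine signalling with 2 probes, had differences of 0.14 ± 0.21 and 0.14 ± 0.29, smaller than their standard errors. TRIM32, TRIM15 and TRIM11 lay within 0.03 of 0.

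Among tested members outside both the interferon-induced list and the innate signalling group, TRIM47 was the only one past the test. Standing outside both does not mean that a member has no such role. TRIM47, a PRY-SPRY ligase, was at 6.25 in parental cells, 7.29 in GR1, 7.33 in GR3 and 7.48 in GR4. All 3 clones were more than 2-fold above the parental value, and TRIM47 rose 2.17-fold (1.12 ± 0.13, adjusted p = 0.0491). With normexp on the 2 columns its difference was 0.27 (adjusted p = 0.299).

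TRIM7, a ligase that binds glycogenin and recognizes proteins ending in glutamine, was at 9.12 in parental cells, 6.98 in GR1, 7.25 in GR3 and 7.48 in GR4. Its clones were 3.68-fold lower on average (−1.88 ± 0.24), and its adjusted p of 0.0510 lay just short of the threshold. It passed under 4 alternatives, among them normexp on the 2 columns (−1.53, adjusted p = 0.0432). The other TRIM7 probe was not above the limit on any array. TRIM7 is not on the interferon-induced list, and it had the lowest difference outside it.

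TRIM41 has 2 probes that did not move together. The brighter was at 6.45 in parental cells and at 5.56, 5.80 and 5.74 in the clones (−0.74 ± 0.15, adjusted p = 0.0785), and the dimmer had a difference of 0.01 ± 0.21. TRIM9 likewise had one probe at −0.37 ± 0.22 and one at 0.44 ± 0.15. TRIM37, which places ubiquitin on histone H2A, was at 6.63 and at 7.18, 7.26 and 7.02 (0.52 ± 0.15, adjusted p = 0.124). TRIM61 was at 2.98 and at 3.53, 3.49 and 4.06 (0.71 ± 0.29, adjusted p = 0.208).

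TRIM75 and TRIM67 were dim. TRIM75 was at 1.61 on the parental array, at the floor on GR1 and GR3 and at 1.26 on GR4 (−0.79 ± 0.34, adjusted p = 0.228). TRIM67 was at 2.0 and at 0.97, 1.69 and 1.59 (−0.58 ± 0.35, adjusted p = 0.357). TRIM48 was just above the limit in parental cells, at 0.82, and at the floor in all 3 clones, at least 1.16-fold lower (adjusted p = 0.263). It passed the filter through the parental array alone, so a lower value in the clones was fixed by the filter, and it is 1 of the 24 members lower in all clones. TRIM75, above the limit on 2 clones, also passed through the parental array alone. That favours lower values in the clones, and TRIM75 is among the 24 too. TRIM46 and TRIM36 were above the limit on 1 clone each and were not tested.

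Members were also sorted by the end of the protein. The 42 tested members listed in no other class were taken as having a PRY-SPRY domain or no C-terminal domain. Of the 42, 5 fell and 1 rose, against 1.89% and 2.17% of all genes, with a median of −0.11. Without the interferon-induced genes the remaining 32 had a median of 0.01. The 4 members with a PHD finger and bromodomain, TRIM24, TRIM28, TRIM33 and TRIM66, had a median of 0.26. Of these, 3 were higher in all clones, against 35.3% of all genes. TRIM28, the co-repressor recruited by KRAB zinc finger proteins, was at 8.22 in parental cells and at 8.52, 8.66 and 8.59 in the clones (0.37 ± 0.12, adjusted p = 0.149). The 4 members with NHL repeats had a median of −0.085 and the 5 tested members listed as microtubule-binding one of −0.37. In these 3 classes 0 genes passed limma, and 2 had an unadjusted p under 0.05, 1 lower among the microtubule-binding and 1 higher among the PHD members. With 4.06% of all genes called, 0 calls in so few genes is near the background.

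By position, the TRIM genes of chromosome 11 near TRIM22 and those of chromosome 6 in and near the MHC were compared with their neighbours. On chromosome 11 TRIM5, TRIM34 and TRIM22 lie together, with TRIM21 and TRIM68 on one side and TRIM3 on the other. There TRIM22, TRIM21 and TRIM5 fell and TRIM34 was lower in all clones. TRIM68 was higher, and TRIM3, an NHL ligase, was at 4.23 in parental cells and at 4.02, 4.28 and 4.33 in the clones (−0.02 ± 0.18). On chromosome 6, 1 of 8 members fell, TRIM38, against 1.89% of all genes, and TRIM26 was lower in all clones. The other 6, TRIM10, TRIM15, TRIM27, TRIM31, TRIM39 and TRIM40, had a median of 0.09. Of these, 2 were lower and 3 higher in every clone, against 37.8% and 35.3% of all genes. TRIM15, annotated next to TRIM26, had a difference of 0.00 ± 0.11 beside the −1.01 of TRIM26.

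The clones resembled each other over the family. The median range between the highest and the lowest clone was 0.32 for the 60 members and 0.30 for all genes tested. A range above 1 was seen in 2 members, TRIM29 and TRIM59 (3.33% of the family and 4.32% of all genes). TRIM59, a membrane-anchored ligase, was at 4.28 in parental cells, 5.15 in GR1, 4.10 in GR3 and 4.88 in GR4. GR1 and GR4 lay above the parental value and GR3 below it. Apart from TRIM48, whose clones were all at the floor, GR3 was the clone farthest from the other two in 24 of 59 members, GR1 in 18 and GR4 in 17. Over all genes GR3 was that clone in 7447 of the 16439 that could be sorted this way. Among the 10 interferon-induced members it was GR1 in 4, GR4 in 4 and GR3 in 2.

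Partners of the interferon-linked TRIM proteins were read from a list of other genes in the pathway. Of 10 sensors and adaptors, 4 fell, 8 were lower and 2 higher in all clones, against 1.89%, 37.8% and 35.3% of all genes. RIGI, the sensor that TRIM25 ubiquitinates, was at 10.06 in parental cells and at 7.31, 7.71 and 7.53 in the clones, and it fell 5.84-fold (−2.55 ± 0.20, adjusted p = 0.0442). DHX58 had the lowest difference of the 10 and fell 6.25-fold (−2.64 ± 0.17, adjusted p = 0.0442 by limma). IFIH1, which encodes the TRIM65 substrate MDA5, fell by 2.19 ± 0.17 (adjusted p = 0.0442). STING1, on which TRIM56 acts, fell by 2.07 ± 0.23 (adjusted p = 0.0474). MAVS, the adaptor downstream of both RNA sensors, was at −0.75 ± 0.19 (adjusted p = 0.103). RNF135, another ligase of RIG-I, was at 0.62 ± 0.15 (adjusted p = 0.0978) and the DNA sensor CGAS at 0.81 ± 0.16 (adjusted p = 0.0791), both higher in all clones.

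Of 11 receptors and signalling genes, 1 fell and 7 were lower in all clones, against 1.89% and 37.8% of all genes, with a median of −0.64. The gene that fell was IRF9, a subunit of the factor that binds interferon response elements (−2.07 ± 0.10, adjusted p = 0.0442). IRF3, the TRIM26 target, was at −0.06 ± 0.17 and JAK1 at −0.07 ± 0.19. Of 5 genes of ISG15 conjugation, 3 fell (USP18, ISG15 and UBE2L6) and all 5 were lower in all clones, with a median of −2.14. The 5 genes once named TRIM that the symbol rule leaves out, MID1, MID2, PML, MEFV and CMYA5, held 0 calls by limma. At an unadjusted p under 0.05, 2 were higher. Over all genes 4.06% were called and 31.9% had such a p, so these counts are near the background. PML, a nuclear body component that interferon also induces, was at 4.78 in parental cells and at 4.46, 4.67 and 4.87 in the clones (−0.12 ± 0.20).

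Promoter windows are shown because the members that fell share a known inducer. RefSeq windows of 300 bases on GRCh38.p14, 250 before and 50 after the annotated start, were found for 47 of the 62 members and for 9 of the 10 interferon-induced ones. TRIM22 is the one not matched. They were searched for the core of the interferon-stimulated response element, GAAANNGAAA on either strand, and for the gamma-activated site, TTCNNNGAA, which reads alike on both strands. No match of one overlapped a match of the other in the family. The response element core was present in 6 of the 9 interferon-induced windows (66.7%), in 2 of the 38 other TRIM windows (5.26%) and in 3.65% of all 27305 promoters of this length. The gamma-activated site was present in 0 of the 9, in 5 of the 38 (13.2%) and in 7.88% of all promoters. A match is a description of the letters and not a measured binding site. The windows of 3 members that fell and hold a core follow, each 5′ to 3′ on the gene's strand, with the core in capitals, for TRIM21 (chr11:4393653-4393952, minus strand), TRIM14 (chr9:98119173-98119472, minus strand) and TRIM5 (chr11:5685025-5685324, minus strand).
TRIM21: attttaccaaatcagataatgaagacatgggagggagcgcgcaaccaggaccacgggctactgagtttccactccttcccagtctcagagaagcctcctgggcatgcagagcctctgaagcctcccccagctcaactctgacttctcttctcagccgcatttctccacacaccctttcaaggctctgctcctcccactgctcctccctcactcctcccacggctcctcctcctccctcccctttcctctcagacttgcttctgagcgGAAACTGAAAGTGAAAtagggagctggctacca
TRIM14: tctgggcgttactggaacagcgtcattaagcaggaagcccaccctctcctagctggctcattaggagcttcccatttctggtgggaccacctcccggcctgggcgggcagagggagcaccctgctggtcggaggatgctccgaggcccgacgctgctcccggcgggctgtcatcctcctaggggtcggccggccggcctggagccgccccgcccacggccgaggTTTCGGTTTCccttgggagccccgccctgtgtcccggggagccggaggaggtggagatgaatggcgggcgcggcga
TRIM5: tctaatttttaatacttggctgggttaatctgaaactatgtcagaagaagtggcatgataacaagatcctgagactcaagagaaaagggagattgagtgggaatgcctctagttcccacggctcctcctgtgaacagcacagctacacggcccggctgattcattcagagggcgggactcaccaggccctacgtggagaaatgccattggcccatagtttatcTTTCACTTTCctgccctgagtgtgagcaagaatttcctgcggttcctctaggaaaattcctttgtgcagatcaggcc

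In TRIM21 2 overlapping cores lie downstream of the start, from 18 to 33. The core of TRIM14 lies at −26 to −17 and that of TRIM5 at −27 to −18, almost the same distance before the start. Shorter stretches around the cores of the 3 members that did not pass allow comparison of the letters, for TRIM26 (chr6:30213575-30213610, minus strand), TRIM34 (chr11:5624901-5624930, plus strand) and TRIM69 (chr15:44736456-44736485, plus strand).
TRIM26: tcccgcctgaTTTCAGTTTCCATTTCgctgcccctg
TRIM34: gccccaaaaaTTTCACTTTCatttctcagg
TRIM69: ctaatgagggTTTCTCTTTCtcttaagcaa

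TRIM26 holds 2 overlapping cores, as TRIM21 does, but far before the start, from −194 to −179. In all of these but TRIM21 the core is read on the opposite strand of the gene. The 6 members with a core had differences of −2.25 (TRIM21), −1.69 (TRIM14), −1.36 (TRIM5), −1.01 (TRIM26), −0.79 (TRIM34) and −0.68 (TRIM69). The 3 interferon-induced members with no core in the window had differences of −2.08 (TRIM38), −1.10 (TRIM56) and −0.20 (TRIM25), so both sets include members that fell or were lower. TRIM38 fell with these letters absent from its window (chr6:25962552-25962851, plus strand), which is shown for comparison.
TRIM38: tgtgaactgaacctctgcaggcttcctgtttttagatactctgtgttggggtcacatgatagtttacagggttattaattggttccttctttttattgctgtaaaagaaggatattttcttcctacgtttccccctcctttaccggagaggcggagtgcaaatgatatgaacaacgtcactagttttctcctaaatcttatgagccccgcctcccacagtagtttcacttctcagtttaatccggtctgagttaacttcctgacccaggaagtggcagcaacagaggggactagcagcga

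Outside the list, TRIM2 and TRIM44 hold a core. TRIM2, an NHL ligase of neurons, was at 5.76 in parental cells and at 5.0, 5.72 and 5.13 in the clones (−0.47 ± 0.35, adjusted p = 0.432), and TRIM44 was higher in all clones.

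**Figure D5:**
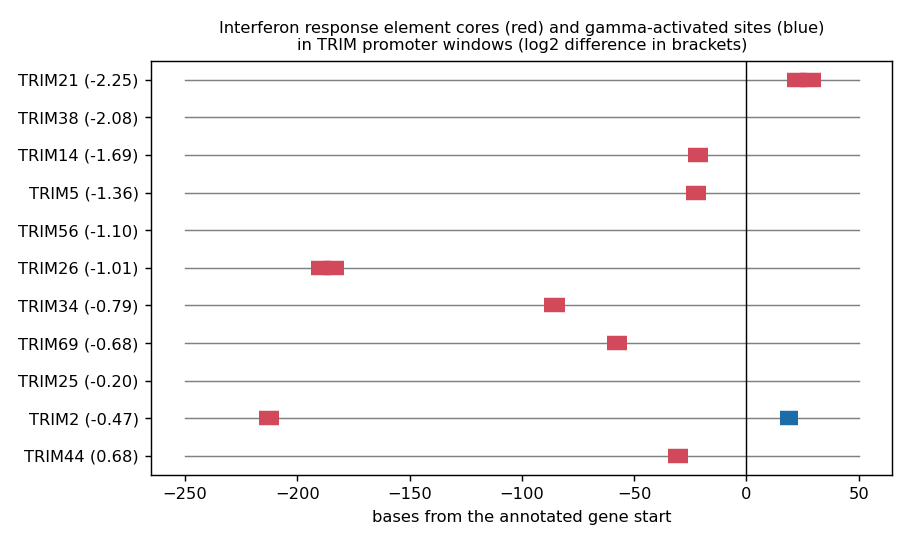
Positions of response element cores (red) and gamma-activated sites (blue) in bases from the annotated gene start (horizontal axis) for the 9 interferon-induced TRIM genes matched and for TRIM2 and TRIM44, with the log2 difference in brackets. The cores of TRIM14, TRIM5 and TRIM44 lie just before the start and those of TRIM21 just after it, and TRIM38, TRIM56 and TRIM25 have none in the window.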

How the data were processed

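Amplified RNA labelled with Cy5 was hybridized to Toray 3D-Gene arrays, 1 per line, per the series' design text. Per the file headers, the scanner files the authors deposited give the median spot intensity and a column headed as background, on a linear scale. A second table the authors deposited holds intensity with blanks subtracted, scaled to a median of 25 per array. Recomputing it from the spots gave deviations of at most 6.11e-06 units. The background column followed the spot signal (log2 correlation 0.932 to 0.963), so the mean of the middle 90% of 2680 blank spots was subtracted instead of the normexp model planned for 2 columns.

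Here 11 probes with faulty spots were dropped, signals were quantile normalized, values under 1.52 units were set to that floor, and log2 was taken. A probe entered the fit if parental cells, or all 3 clones, exceeded the blank mean by over 2 SD. limma 3.58.1 in R 4.3.3 (lmFit, eBayes, two-sided) was fitted over all 22796 such probes, with 2 residual degrees of freedom, with the spread of the lone parental array taken to equal that between clones. It was tested on simulated data. Genes are represented by their brightest probe. TRIM members were picked by the probe symbols of the platform annotation. For gene counts, brightest probes and the other gene lists, older symbols were updated to those of RefSeq (GRCh38.p14). RefSeq also supplied gene order and promoters. The number of arrays limits precision.

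The members, the lists, the rule for named genes (every interferon-induced member, every called or 2-fold member, the 5 highest and 5 lowest others) and the tests were chosen with earlier results of these data known. The fall of interferon-stimulated genes was among them, so the lower signal of the interferon-induced TRIM list is not independent support for it. Members named beyond that rule were named after their values were seen.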

Additional observations from a re-analysis of the deposited data

How the results depend on the processing

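Over 10 alternatives (9 for TRIM75) the log2 difference of all 23 members named by the rule kept its sign, apart from TRIM69, which was 0.0074 when normexp used both scanner columns. The count of 6 TRIM genes past limma's threshold, 5 of them interferon-induced, was 3 and 2 with normexp, 1 and 1 with no normalization between arrays, and 0 and 0 with no filter on dim probes. It was 11 and 7 with probes above the limit on all 4 arrays, and 0 of either kind without GR1, GR3 or GR4, a fit with 1 residual degree of freedom. The share of all genes past the threshold moved too, from 4.06% to 0.88% with normexp, 1.25% with no normalization, 13.4% with the stricter filter, and 0 genes with no filter or a clone left out. At least 2-fold apart in all clones were 8 TRIM genes and 7.26% of all genes, and 5 and 1.93% with normexp on the 2 columns. The TRIM count was 14 at 1.5-fold and 5 at 3-fold, with no share of all genes given at these folds. With a clone left out the TRIM count was 8 to 10, beside 7.88% to 10.6% of all genes. The median of the interferon-induced members, −1.23, was −0.68 with normexp on the 2 columns, −1.09 with median scaling, −1.05 with no normalization, −1.09 with the authors' deposited values and −0.24 over the wider list of 27 genes. With a clone left out it ranged from −1.25 to −1.25. The median of the rest, 0.02, turned to −0.044 without GR3 and was 0.047 without GR1 and 0.055 without GR4. The causes were not tested. The number of arrays limits each result, and signals near the floor limit dim members such as TRIM48, TRIM67 and TRIM75. No paired analysis was possible because the parental line has 1 array.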

Other observations

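TRIM51, which the array lists under an older symbol, and the TRIM-like genes TRIML1 and TRIML2 lie outside the symbol rule. TRIM51 was at 1.01 on the parental array and at or near the floor on the clones (−0.39 ± 0.10, adjusted p = 0.114 by limma). TRIML1 was at 5.06 and at 5.48, 5.30 and 5.16, and TRIML2 at 3.80 and at 4.05, 4.86 and 4.35, and neither passed (adjusted p = 0.402 and 0.341 by limma).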
